A study of Mus musculus with 17 samples.

Results

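The sites described here are BRG1 peaks of postnatal day 12 (P12) spermatogenic cells. They were not found at postnatal day 18 (P18) and lay far from the H3K27ac regions shared by the genotypes. They were chosen from the deposited region lists as P12 peaks on chromosomes 1 to 19 that overlapped no P18 BRG1 peak and were separated by more than 5000 bp, edge to edge, from every H3K27ac region in the authors' list of regions shared by the genotypes. Coordinates are in build mm9 and counted from 1. There were 2415 such peaks, 13.2% of the 18336 P12 peaks on these chromosomes and 15.7% (95% interval 15.1 to 16.2) of the 15428 P12 peaks not found at P18. They are called remote P12-only peaks below. The whole P12 list held 18630 peaks. On chromosomes 1 to 19 the P18 list was much shorter, with 3020 peaks, and most P12 peaks had no overlap with it.

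BRG1 was precipitated from wild type CD1 spermatogenic cells, with 2 libraries at P12 and 2 at P18. The H3K27ac libraries, 2 of Brg1WT and 2 of Brg1cKO cells, were made at P12 from mice of mixed background, so the peaks and the acetylation compared with them come from different mouse stocks. Brg1cKO is a conditional knockout of Brg1 made with Mvh-cre, a Cre driven in germ cells. The common class holds the regions shared by Brg1WT and Brg1cKO cells. Cells came from testes digested with collagenase and trypsin and passed through a sieve, so the label "spermatogenic cells" names a preparation rather than a purified type. Region lists carry no expression values, and the cell type was not checked against markers. Each list is given for all libraries of its group together, so no value below has an error between replicates, and the read depth behind a peak is not known from the lists. Intervals are exact binomial 95% intervals for shares and order-statistic 95% intervals for medians. They cover counting error only, because neighbouring peaks are not independent and peaks are not replicates.

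BRG1, also called Smarca4, is an ATPase of the SWI/SNF complex, which uses ATP to slide or evict nucleosomes and so opens chromatin to other factors. Acetylation of histone H3 at lysine 27 is found at active promoters and enhancers, and SWI/SNF is best known from such sites. In the germ line BRG1 is required for meiosis in males. At P12 the testis holds spermatogonia and the first spermatocytes, and at P18 it is rich in pachytene spermatocytes.

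The choice of sites used the P12, P18 and common H3K27ac lists, so strengths, widths and distances drawn from these lists describe the sites and test nothing. The strength of a peak is its −log10 q, the negative logarithm of the q value from the authors' peak calling, so a higher value means a firmer call. The 3 peaks just inside the distance limit lay 5001, 5008 and 5009 bp from a common region, with −log10 q values of 5.41, 3.43 and 2.18. The 3 P12-only peaks just outside it lay 4992, 4992 and 4989 bp away, with −log10 q values of 3.62, 4.63 and 2.16. The strengths on the 2 sides of the limit overlapped. For comparison, the other P12-only peaks were divided into 8239 that overlapped a common region, called acetylated peaks below, and 4774 that lay within 5000 bp of one without overlap, called flanking peaks.

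Most remote peaks were not far beyond the limit. Their median gap to the nearest common region was 10.4 kb (10.1 to 10.9), and the middle 50% lay between 6.90 and 17.7 kb. Of the 2415, 1148 lay 5 to 10 kb away, 757 lay 10 to 20 kb away, 411 lay 20 to 50 kb away, 71 lay 50 to 100 kb away and 28 lay farther than 100 kb. Strength hardly varied with this distance. The median −log10 q was 3.22 at 5 to 10 kb, 3.24 at 10 to 20 kb and 3.26 at 20 to 50 kb, and it was 3.02 for the 71 peaks at 50 to 100 kb. Beyond 100 kb it was 2.60, over 28 peaks.

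Common H3K27ac was sparser around remote peaks than around the other P12-only classes, well beyond the 5 kb that the choice of sites cleared. Those classes were defined by nearness to common regions. No genome-wide average was computed, so whether these neighbourhoods were poor in H3K27ac as such is not shown. In the flanks from 5 to 100 kb on both sides, the median share of bases in common regions was 2.32% for remote peaks, 6.0% for flanking peaks and 5.99% for acetylated peaks. At 50 kb from the peak centre, 3.29% of positions lay in a common region for remote peaks, 6.51% for flanking peaks and 6.59% for acetylated peaks. A remote peak had a median of 15 common regions within 100 kb (14 to 16), with a range from 0 to 92. The peaks that were remote and were found at P18, 115 in number, had a similar setting, with 13 common regions within 100 kb (11 to 15) and 1.99% of their 5 to 100 kb flanks acetylated.

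**Figure D1:**
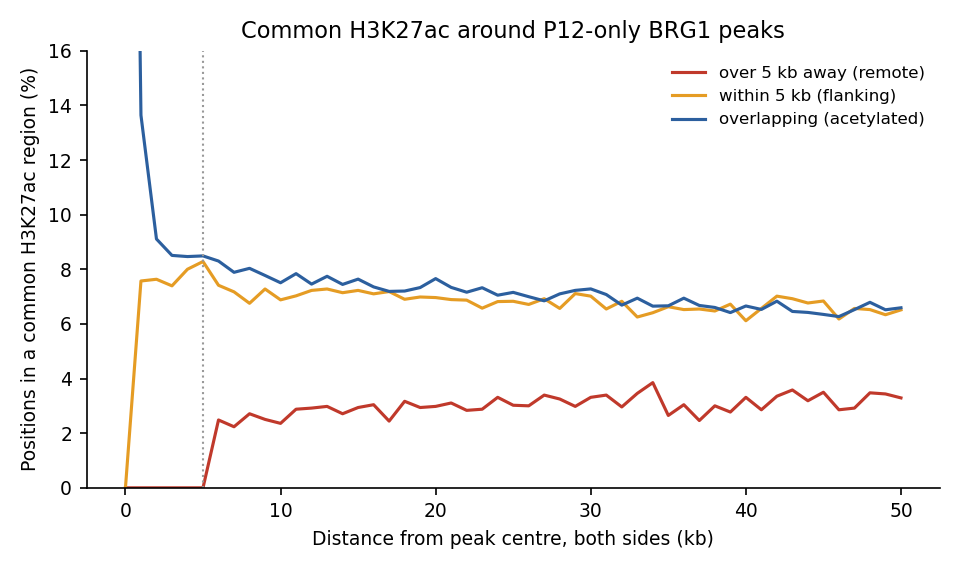
Share of positions lying in a common H3K27ac region (y axis, percent, shown up to 16) at distances of 0 to 50 kb from the centre of P12-only BRG1 peaks (x axis, both sides pooled). The curve for remote peaks is 0 inside the 5 kb limit (dotted line) by definition and is 3.29% at 50 kb, below the other curves, which are 6.51% for flanking and 6.59% for acetylated peaks; the acetylated curve starts at 56.1% at the centre, above the range shown.

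Remote peaks were weaker than acetylated ones and about as strong as flanking ones. The median −log10 q was 3.22 (3.15 to 3.28) for remote, 3.11 (3.07 to 3.17) for flanking and 4.25 (4.18 to 4.30) for acetylated P12-only peaks. On each of the 19 autosomes the median strength of remote peaks was below that of acetylated peaks. When all P12 peaks were ranked by strength and divided into 10 equal bins, 71.8% of remote peaks and 71.6% of flanking peaks fell in the weakest 5 bins, against 46.6% of acetylated peaks. Remote P12-only peaks made up 20.7% (18.8 to 22.6) of the fourth bin and 2.46% (1.80 to 3.27) of the strongest bin, which still held 45 of them. As a share of the P12-only peaks of the bin, which leaves out peaks found at P18, these values were 21.3% and 5.49%.

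Absence at P18 was the rule among weak peaks of any class, and remote peaks were found at P18 less often than acetylated ones in 7 of the 10 strength bins. Here each class includes its peaks found at P18. Of all remote P12 peaks, 4.55% (3.77 to 5.43) overlapped a P18 peak, close to the 4.84% (4.27 to 5.47) of flanking peaks and below the 23.6% (22.8 to 24.5) of peaks on common H3K27ac. In the strongest strength bin the shares were 26.2% (15.8 to 39.1) for remote, 31.9% (24.7 to 39.7) for flanking and 58.7% (56.2 to 61.1) for acetylated peaks. In bins 4 and 5 they were 1.81% (0.732 to 3.70) and 2.13% (0.862 to 4.35) for remote, against 4.78% (3.42 to 6.48) and 7.41% (5.80 to 9.30) for acetylated peaks. In bins 2 and 3 the remote shares were the higher ones, at 1.08% and 1.12%, against 0.272% and 1.01% for acetylated peaks, with overlapping intervals. In the weakest bin 0 of 315 remote peaks (up to 1.16%) and 0 of 699 acetylated peaks were found at P18. The odds ratio of being found at P18, remote against acetylated, was 0.154 (0.127 to 0.187) over all peaks. Compared within strength bins it was 0.372 (0.303 to 0.457), and within bins of strength and width 0.482 (0.391 to 0.594).

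Among peaks that did not overlap a common region, this share varied little with distance. Peaks within 1 kb of a common region were found at P18 in 4.98% of cases (4.10 to 5.98), those at 2 to 5 kb in 5.06% (4.08 to 6.19), those at 5 to 10 kb in 4.09% (3.04 to 5.38), those at 10 to 20 kb in 5.02% (3.61 to 6.77) and those at 20 to 50 kb in 4.64% (2.86 to 7.08). The intervals of these ranges all overlapped one another, and all lay below the share for peaks that overlapped a common region.

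**Figure D2:**
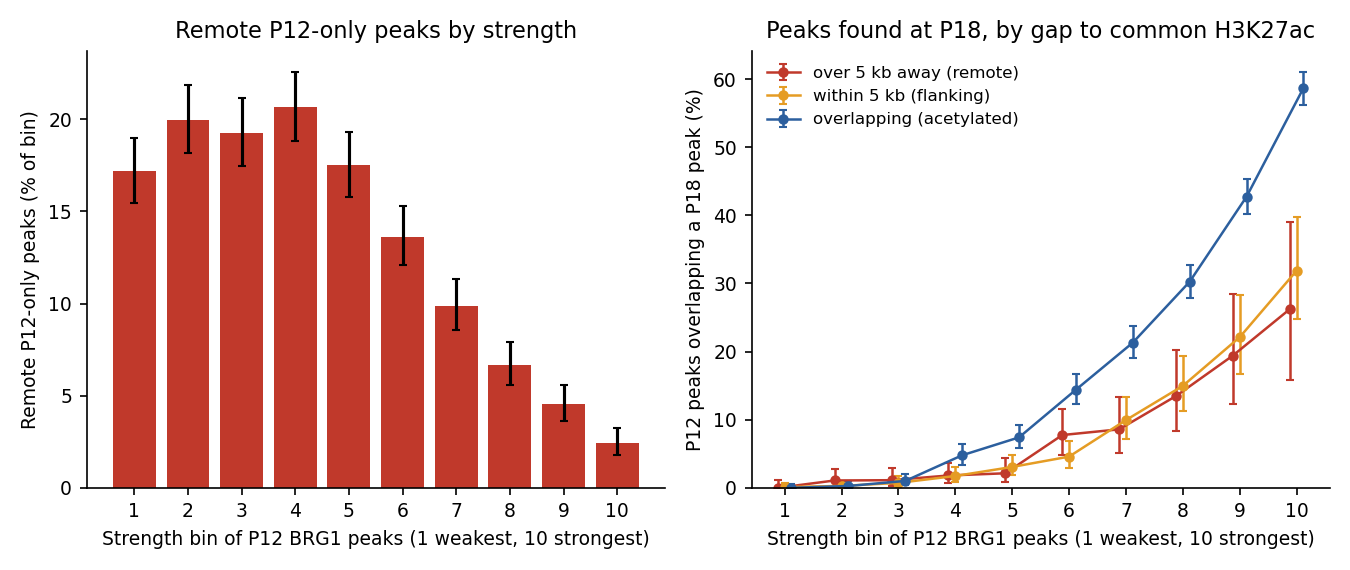
Left, remote P12-only peaks as a percentage of each of 10 equal bins of P12 peaks ranked by −log10 q (bars, with exact 95% intervals). Right, percentage of P12 peaks in each bin that overlap a P18 peak, for remote, flanking and acetylated peaks (points with exact 95% intervals); in the strongest bin the remote share of 26.2% and the flanking share of 31.9% have overlapping intervals, and both lie below the acetylated share of 58.7%.

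Remote peaks were intermediate in width. Their median width was 621 bp (585 to 643), against 503 bp (488 to 519) for flanking and 845 bp (828 to 860) for acetylated P12-only peaks. In 9 of 10 strength bins remote peaks were wider than flanking ones, and in 9 of 10 they were narrower than acetylated ones. A flanking peak is bounded on one side by a region it does not reach, and an acetylated peak must reach one, so width is tied to how the classes were drawn. Among remote peaks, 975 were narrower than 500 bp and 130 were 2000 bp or wider. Across the 2415 peaks, which are not independent, Spearman's rho of width with strength was 0.344.

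The widest and the strongest remote peaks were different sites. The 130 peaks of 2000 bp or more had a median −log10 q of 3.58 and none was above 6.57. The widest, at chr5:108150167-108156104, spanned 5938 bp with a −log10 q of 3.17 and lay 18.9 kb from a common region. The next, at chr11:63732663-63737353, spanned 4691 bp with a −log10 q of 3.47. The third was at chr5:111845572-111850101, with a width of 4530 bp and a −log10 q of 3.68. By contrast, the 10 strongest remote peaks were between 248 and 666 bp wide, and 8 of them were narrower than the median remote peak. This did not hold for the 100 strongest, whose median width was 665.5 bp, against 621 bp for all remote peaks.

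**Figure D3:**
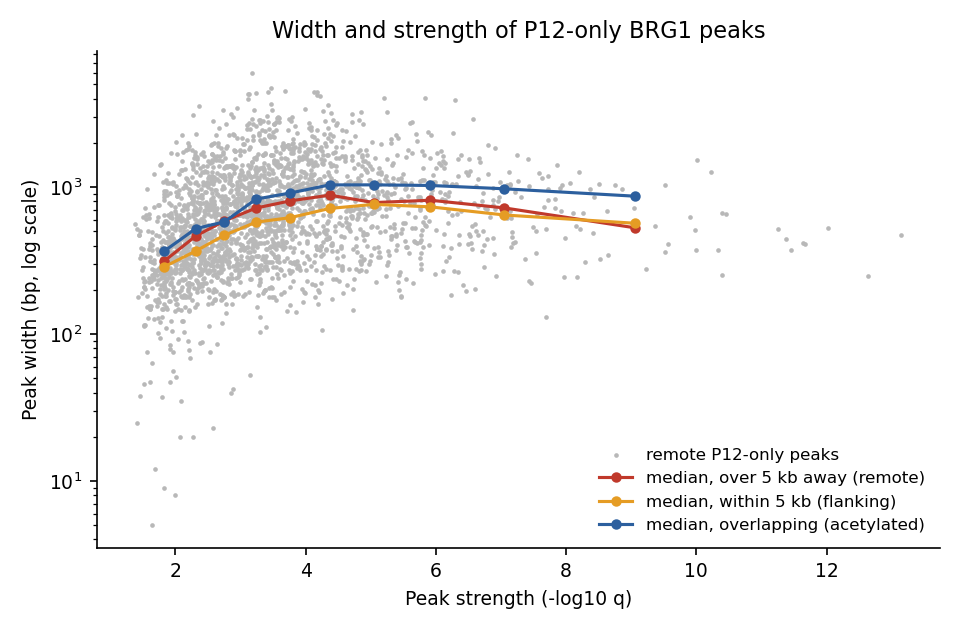
Width (y axis, bp, log scale) against strength (x axis, −log10 q) of the 2415 remote P12-only peaks (grey points). Lines join the median widths of remote, flanking and acetylated P12-only peaks in 10 strength bins, placed at the median strength of all P12 peaks in the bin; in the strongest bin the median width is 528 bp for remote peaks and 866.5 bp for acetylated peaks.

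The strongest remote peak was a narrow, solitary site at chr6:133055195-133055669. It had a −log10 q of 13.1, a width of 475 bp, a gap of 9.67 kb to the nearest common region and only 2 common regions within 100 kb. The nearest other P12 peak was 929 kb away and the nearest P18 peak 1460 kb away. Such a site stands alone in a stretch with little BRG1 and little acetylation.

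A pair of the 10 strongest were on chromosome 8. One, chr8:23296027-23296274, had a −log10 q of 12.6 and a width of 248 bp, with a common region 7.57 kb off and another P12 peak 7.02 kb off. The other, chr8:85965965-85966372, with a −log10 q of 11.7, had 5 common regions within 100 kb. Chromosome 4 also held a pair, chr4:33397213-33397740 (−log10 q of 12.02) and chr4:12834029-12834400 (−log10 q of 11.5). The former had 28 common regions within 100 kb and the latter 1. Remote peaks of similar strength thus lay in acetylated and in barely acetylated neighbourhoods.

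The fifth strongest, at chr11:17853426-17853840, combined high strength with great distance. Its −log10 q was 11.6, the nearest common region was 231 kb away, and the nearest P18 peak was 2250 kb away. The other 4 of the 10 lay at chr17:25097162-25097605 (−log10 q of 11.4), at chr13:30636686-30637204 (11.3), at chr6:83864437-83865087 (10.5) and at chr3:157694270-157694935 (10.4). All 10 were over 50 kb from a P18 peak, the closest at 53.1 kb. Such a distance was usual, since only 14% of all remote peaks lay within 49.85 kb of a P18 peak.

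The peaks farthest from H3K27ac were weak ones. A pair, chr17:39980057-39983601 and chr17:39984841-39985751, lay 422 and 419 kb from a common region with −log10 q values of 2.36 and 2.56. They were 1.24 kb from each other and 3030 kb from the nearest P18 peak. As background, this stretch of mm9 is known to hold a copy of the ribosomal RNA precursor, a sequence present in many copies in the genome, where read counts are hard to place; its part in these peaks was not tested. The third farthest lay at chr9:8544159-8544485, 269 kb from a common region, with a −log10 q of 1.99.

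Remote peaks were also more isolated from other P12 BRG1 peaks than the other P12-only classes were. Their median gap to the nearest other P12 peak was 26.0 kb (23.5 to 29.2), against 14.1 kb (13.5 to 14.8) for acetylated and 10.2 kb (9.57 to 10.9) for flanking P12-only peaks. On each of the 19 autosomes the median gap of remote peaks was the larger one in the comparison with acetylated peaks. Another P12 peak lay within 10 kb of 810 remote peaks (33.5%, 31.7 to 35.5), against 40.3% of all P12 peaks on these chromosomes. Isolation was not particular to them. Among P12 peaks found at P18, the median gap was 50.3 kb (31.9 to 62.8) for remote, 28.8 kb for acetylated and 21.6 kb for flanking peaks. The P18 list held 3020 peaks on these chromosomes, against 18336 at P12, and gaps to it were large for every P12-only class. They were largest for remote peaks. The median gap to a P18 peak was 219.6 kb (207.7 to 232.0) for remote peaks, 104.0 kb for flanking peaks and 107.5 kb for acetylated peaks, and a P18 peak lay within 100 kb of 639 remote peaks (26.5%, 24.7 to 28.3), against 44.9% of all P12-only peaks. Within 10 kb the count was 60 (2.48%, 1.90 to 3.19), against 5.92%. Of the 18336 P12 peaks, 10789 overlapped a common region, and 2550 of these were found at P18. The choice of sites kept remote peaks away from common regions, and so from many of these BRG1 peaks. Gaps to P12 and to P18 peaks, here and below, are therefore tied to how the classes were drawn.

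**Figure D4:**
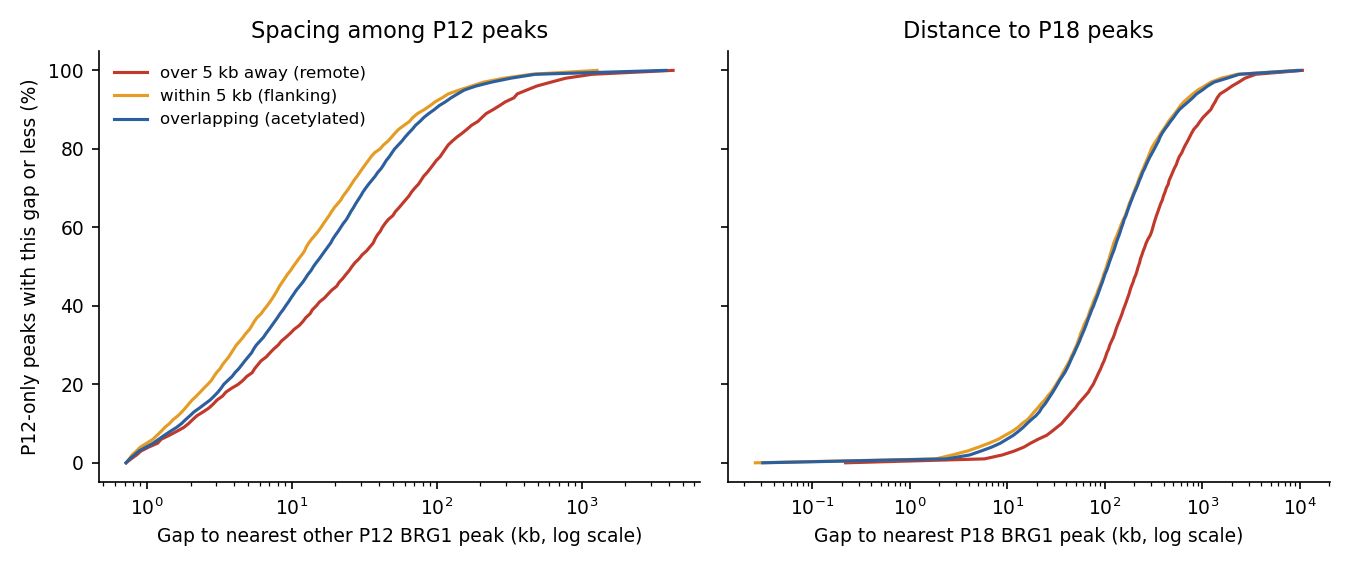
Cumulative percentage of P12-only peaks (y axis) with a gap up to the distance on the x axis (kb, log scale) to the nearest other P12 BRG1 peak (left) and to the nearest P18 BRG1 peak (right), for remote, flanking and acetylated peaks. The remote curve lies to the right of the others at its midpoint in both panels, at 26.0 kb on the left and 219.6 kb on the right.

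A single remote peak lay within 1 kb of a P18 peak, against 0.266% of all P12-only peaks. This peak, at chr12:100158656-100159012, had a −log10 q of 7.53 and missed the P18 peak by 0.219 kb. It is named because of this gap, outside the naming rule. The next nearest lay at chr13:95652677-95654158, with a gap of 1.21 kb.

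Some remote peaks formed dense groups. When remote peaks with gaps of at most 10 kb were joined into clusters, leaving other P12 peaks aside, 1871 (77.5%) were joined to no other remote peak, 175 clusters were pairs and 50 clusters held 3 or more. Joined in the same way among themselves, 75.2% of flanking and 72.1% of acetylated P12-only peaks were single. Clusters of 3 or more held 8.03% of remote, 7.83% of flanking and 11.1% of acetylated peaks. Peaks of other classes were left aside, so these shares do not compare how densely each class lay among all P12 peaks. With all P12 peaks counted, another lay within 10 kb of 33.5% of remote, 49.5% of flanking and 42.2% of acetylated P12-only peaks. The 194 peaks in clusters of 3 or more had a median width of 762.5 bp (625 to 919), against 598 bp (563 to 632) for unjoined ones, and a median gap to H3K27ac of 15.98 kb (14.4 to 17.2), against 9.68 kb (9.21 to 10.2). Their median −log10 q was 3.16 (2.98 to 3.28), against 3.28 (3.21 to 3.37), and these intervals overlapped. Given the 5 kb limit and the 10 kb joining distance, no common region can lie inside a cluster. The inner peaks of a cluster are thereby kept farther from one, so the larger gap to H3K27ac is tied to the rule. Clusters of 6 or more numbered 6 among the 2415 remote, 2 among the 4774 flanking and 19 among the 8239 acetylated P12-only peaks.

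The largest cluster held 11 remote peaks over 57.7 kb at chr6:52153369-52211058. BRG1 peaks covered 12058 bp, or 20.9%, of the span. The span held no P18 peak and no gained or lost H3K27ac region. That it held no common region, and that its P12 peaks were all remote, follows from the 5 kb limit and the 10 kb joining distance. The 11 peaks were 324 to 1926 bp wide with a median of 1148 bp. All were of low to middling strength, with −log10 q values from 2.17 to 4.12. The strongest was the last of the row, chr6:52209636-52211058, and the next was chr6:52166616-52167834, with a −log10 q of 4.01. Distances to the nearest common region rose from 11.4 kb at the left end to 42.1 kb at the ninth peak and then fell to 26.7 kb, and the nearest P18 peak was 453 kb away or more. The rise and fall follows from the absence of common regions inside the span.

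As background, this stretch of mm9 is known to carry genes of the Hoxa cluster, a row of homeobox genes that set position along the body axis in the embryo and are textbook targets of Polycomb repression. That placement is general knowledge of the build. It was not computed from the files, and the cluster was looked at after its size was seen. H2AK119ub1, the histone mark of Polycomb repressive complex 1, was measured in this series but was not analysed here.

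**Figure D5:**
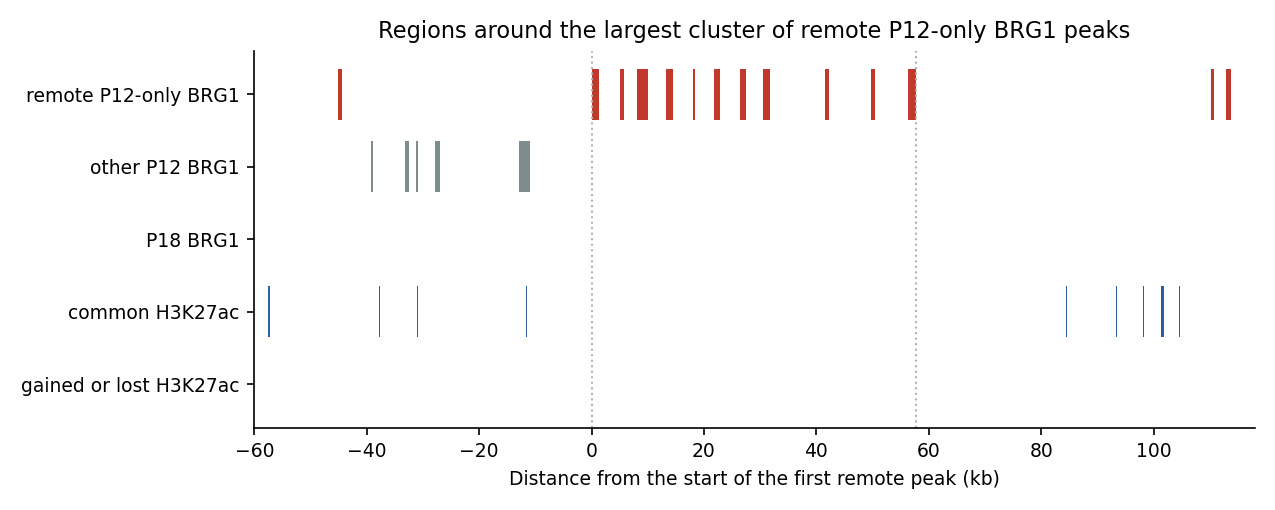
Map of the largest cluster, with distance in kb from the start of its first peak on the x axis and a row of boxes for each kind of region, drawn to scale. The 11 remote P12-only peaks fill the 57.7 kb between the dotted lines, where the rows for P18 peaks and for gained or lost H3K27ac are empty; the rows for common H3K27ac and for P12 peaks near it are empty there by construction.

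A cluster of 7 remote peaks lay at chr19:44808689-44833901, a span of 25.2 kb. Its peaks had −log10 q values from 2.29 to 3.58, and the nearest P18 peak was 627 kb away or more. After it came 4 clusters of 6 peaks each. One, at chr2:74564467-74588677, lies in a stretch of mm9 known, as background, to hold the Hoxd cluster, the counterpart of Hoxa on another chromosome. Its peaks had −log10 q values from 2.30 to 3.72 and lay 7.76 to 30.8 kb from a common region. Unlike the chromosome 6 row it ended 2.68 kb from a P18 peak.

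The other clusters of 6 lay at chr5:106877280-106899676, at chr8:12384915-12401819 and at chr17:86008144-86023246. The chromosome 8 cluster had the largest covered share of the 6 clusters, with peaks over 36.9% of its 16.9 kb. It also held the strongest peak of the 6 clusters, with a −log10 q of 6.14, chr8:12395112-12396005. None of the 6 spans held a P18 peak or a gained or lost H3K27ac region.

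Remote peaks were spread over all 19 autosomes, but unevenly. They made up 28.1% (24.2 to 32.2) of the P12-only peaks on chromosome 13, 22.6% (19.1 to 26.5) on chromosome 12 and 22.2% (19.3 to 25.4) on chromosome 6. The lowest shares were 10.8% (9.20 to 12.6) on chromosome 11 and 10.9% (9.24 to 12.7) on chromosome 7. The largest number of remote peaks, 227, was on chromosome 2. The common regions that the choice of sites used also differed in number, with 6505 on chromosome 13 and 13230 on chromosome 11. Chromosome 2 held 13234 and had a remote share of 18.35%. The shares were not set against the density of common regions on each chromosome.

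Few remote peaks lay near H3K27ac regions that changed in Brg1cKO cells. A gained region, present in the deposited list of regions higher in Brg1cKO, lay within 5 kb of 13 remote peaks (0.538%, 0.287 to 0.919), against 0.731% of all P12 peaks. A lost region lay within 5 kb of 12 (0.497%, 0.257 to 0.866), against 0.829%. Differences of these shares from those of flanking and acetylated P12-only peaks were computed at 1, 5 and 10 kb, and each of the 12 intervals (Newcombe, 95%) included 0. At 5 kb, remote minus acetylated was −0.251 percentage points (−0.561 to 0.166) for gained regions and −0.292 (−0.594 to 0.115) for lost regions. With so few cases, differences of this size were not detectable, and gained and lost regions lie off common regions by construction, as do remote peaks.

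Direct overlap with a changed region occurred at 3 remote peaks, all with gained regions (0.124%, 0.0256 to 0.363), against 0.0709% of all P12 peaks. The strongest of the 3 lay at chr10:67374840-67375411, with a −log10 q of 6.18, and shared 46 bp with a gained region of 279 bp. Another lay at chr12:83717600-83718676, with a −log10 q of 4.47, and contained a whole gained region of 130 bp. The remaining one, at chr2:146664139-146665419, had a −log10 q of 3.23 and contained a whole gained region of 239 bp. No remote peak overlapped a lost region, and a count of 0 in 2415 has an exact upper limit of 0.153% (0.124% at a floor of 3 peaks), against 0.0436% of all P12 peaks. At this number of peaks the background share is below what could have been detected.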

How the data were processed

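The files used were 5 region lists in build mm9. Per the submitters' processing notes, reads were handled with Bowtie, Bowtie2, SAMtools, Picard, deepTools 2.5.2 and MACS2, with no role or order given. The strength of a BRG1 peak is the −log10 q that the authors deposited for it. The other deposited columns of the lists, among them a score, were not used. No label or header says how the libraries of a group were merged. H2AK119ub1 and input libraries were not analysed here.

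Sample titles gave the groups. Overlap meant at least 1 bp, and distances were gaps between region edges. Shares carry Clopper-Pearson intervals, differences of shares Newcombe intervals, and stratified odds ratios are Mantel-Haenszel estimates (Python 3.11.15, SciPy 1.17.1, statsmodels 0.14.6). The distance code was tested on simulated regions. No p-value was computed. Regions were named by rule: the 10 strongest, the 3 widest, the 3 farthest from a common region, 3 on either side of the limit, those overlapping a changed region, and the 3 largest clusters with ties. Peaks and rules were chosen with earlier results of these data known. The supplied gene and promoter tables are on GRCm38, so no gene was placed by position and planned sequence features were not computed. Alternatives changed the distance limit, strength threshold, P18 overlap, common list, peak merging, peak width and chromosomes.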

Additional observations from a re-analysis of the deposited data

How the results depend on the processing

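Of 53 values under alternatives, over 9 results, 38 were counted as unchanged, 15 as moved and none as reversed. The unchanged ones include a shift in the median width difference, remote minus acetylated. It was −179.5 bp with −log10 q of at least 3, against −224 bp as reported. The share of P12-only peaks that are remote, 15.7% as reported, follows the distance limit by construction: it was 26.5% at 2 kb, 8.21% at 10 kb and 3.31% at 20 kb. It was 13.8% when only peaks with −log10 q of 3 or more were kept, 10.6% in the strongest 50% of P12 peaks, 14.4% when 50% of the P12 peak had to be covered by P18 peaks, and 17.5% with common regions of at least 200 bp. Leaving out each of the 19 chromosomes gave 15.2% to 16.1%. With a limit of 10 kb, 29.6% of remote peaks had another P12 peak within 10 kb, 1.58% had a P18 peak within 10 kb, 0.237% had a gained region within 5 kb, and the median number of common regions within 100 kb was 10. The share with another P12 peak within 10 kb was 22.5% above that strength and 31.2% with peaks within 1 kb merged, both of which leave fewer peaks. The odds ratio for being found at P18 was 0.372 within strength bins and 0.482 within bins of strength and width; the latter, and a minimum peak width of 150 bp, were chosen after seeing the data. Differences in width and strength from acetylated peaks kept their direction under every alternative run. No paired analysis was possible because each list is given for all libraries of a group together, and for the same reason no replicate could be left out. Read depth, which limits how many weak peaks a list holds at each age, is not known from the lists.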

Other observations

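Clusters of 5 remote P12-only peaks numbered 5, and they are listed here after their size was seen. They lay at chr5:148111141-148126965, at chr7:86641156-86653951, at chr9:62979911-62999051, at chr13:95638369-95654158 and at chr19:37760133-37773733. None of these spans held a P18 peak or a gained or lost H3K27ac region, which, as for the larger clusters, says little. The absence of common regions inside them follows from the 5 kb limit and the 10 kb joining distance. The strongest peak of these 5 clusters, with a −log10 q of 6.52, was in the chromosome 7 cluster. The chromosome 13 cluster came within 1.21 kb of a P18 peak, and the other 4 were at least 29.5 kb from one.

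Neighbouring P12 peaks were never very close. The smallest gap between any 2 P12 peaks on chromosomes 1 to 19 was 717 bp, and for remote peaks it was 719 bp. Counts of neighbours within 1 kb therefore cover a narrow range of distances. The narrowest remote peak was 5 bp wide, and 69 were narrower than 150 bp, with a median −log10 q of 2.0.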
